A study of Mus musculus with 6 samples.

Results

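Thbs1, Thbs2, Thbs3, Tnc, Spp1, Sparc, Tgfbi and Postn encode matricellular proteins, and their RNA levels were followed in each library of NIH3T3 cells. The genes were chosen by name: each listed Ensembl ID was given its symbol from the GENCODE annotation of mouse, and the 8 genes on the list were all found among the 24938 genes listed. Of these 24938 genes, 12222 were high enough to be tested, and 7 of the 8 matricellular genes were among them. NIH3T3 is an established line of mouse embryonic fibroblasts. The 3 overexpression libraries came from NIH3T3 cells made to overexpress F-CircAE, a fusion circular RNA (a transcript with joined ends) related to AML1-ETO, which joins the transcription factor gene RUNX1 to RUNX1T1 in acute myeloid leukaemia. The 3 reference libraries came from NIH3T3 cells whose genotype is labelled wild type, although their titles carry the letter V. No group is labelled as carrying an empty vector, so effects of the overexpression procedure and of the circular RNA cannot be told apart. The sources used here do not give the way in which F-CircAE was introduced, the time after that, or whether a clone or a pool was taken. Nothing in the labels ties the 3 libraries of a group to separate cultures, and the p-values thus reflect a spread between libraries that may be technical. Since RNA was taken from whole cultures, fewer cells making a transcript and less transcript per cell cannot be told apart.

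Matricellular proteins are secreted into the extracellular matrix, where they act on cells and on growth factors more than they build the scaffold itself. They bind integrins, syndecans and other receptors, loosen or strengthen adhesion, and control how collagen and latent TGF-beta are handled. Fibroblasts are among their main producers, and many of them rise in wound repair, fibrosis and the stroma of tumours. Thrombospondins bind CD47, calcium and proteases; tenascin C alters adhesion to fibronectin; osteopontin, the product of Spp1, binds integrins and CD44; SPARC binds collagen; and TGFBI and periostin share fasciclin domains that bind integrins and matrix.

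Levels are given in FPKM, a measure scaled to gene length and library size, as the authors deposited them. The reads behind them, recovered from the steps of the FPKM values, numbered 16940974, 21808733 and 18663869 in overexpression replicates 1, 2 and 3 and 19943016, 20901570 and 18970728 in wild type replicates 1, 2 and 3. The libraries did not part by group: along the first axis of a principal component analysis (35.5% of the variance), the overexpression libraries lay at -16.6, -0.59 and 1.34, and the wild type libraries at 13.9, 13.3 and -11.2. Wild type replicates 1 and 2 were nearly alike: 40 of 14521 genes (0.28%) differed between them beyond counting error, against 14.9% to 40.7% of genes in the other pairs of libraries. Because some difference beyond counting error remained, they were kept as separate libraries, and the values with both averaged into 1 library are given beside the results that rest on them. All 8 fibroblast markers were tested, with summed levels of 1465 to 1719 FPKM in overexpression libraries and 1548 to 1787 FPKM in wild type libraries. Vim, Col1a1 and Col1a2 made up most of these sums, whereas Thy1 was at 1.20 to 2.89 FPKM with overexpression and 0.873 to 3.61 FPKM in wild type, and S100a4 at 2.23 to 3.58 FPKM with overexpression and 2.08 to 3.22 FPKM in wild type. The leukocyte marker Ptprc did not exceed 0.0117 FPKM in overexpression libraries and 0.00856 FPKM in wild type libraries, and summed leukocyte markers, nearly all from Cd68, were 4.65 to 6.46 FPKM with overexpression and 4.51 to 6.10 FPKM in wild type. Epithelial markers summed to 7.09 to 8.12 FPKM with overexpression and 5.95 to 8.81 FPKM in wild type. Most of this came from Krt14 and Cdh1. Krt14 was at 3.78 to 5.17 FPKM with overexpression and 2.37 to 6.06 FPKM in wild type. Cdh1 was at 2.19 to 2.79 FPKM with overexpression and 2.41 to 2.82 FPKM in wild type. Krt18 was at 0 in all 3 overexpression libraries and in wild type replicates 2 and 3. Endothelial markers summed to 0.776 to 1.09 FPKM with overexpression and 0.640 to 1.14 FPKM in wild type, and skeletal muscle and osteoblast markers to 2.17 to 2.69 FPKM with overexpression and 2.62 to 2.74 FPKM in wild type.

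No matricellular gene passed the test between F-CircAE overexpression and wild type. The test was limma on log2(FPKM + 1) with a Benjamini-Hochberg adjusted p below 0.05 over all 12222 genes, and 0 of 7 tested matricellular genes passed it, as did 0 of all tested genes (0%). At an unadjusted p below 0.05 there were 0 of the 7 genes, against 5.17% of all tested genes. The groups overlapped in all 8 genes, whereas they were apart in 11.5% of all tested genes. Fitted differences were below 0 for 6 of the 7 genes, Tnc being the exception, against 46.8% of all tested genes. The median difference of the 7 genes was -0.16 on the log2(FPKM + 1) scale, beside 0.01 over all tested genes. It was -0.04 without overexpression replicate 1 and -0.46 without wild type replicate 3. With wild type replicates 1 and 2 averaged it was -0.11, with 4 of the 7 genes below 0, against 46.2% of all tested genes. What the 7 genes shared was the place of wild type replicate 3. Wild type replicate 3 lay below wild type replicates 1 and 2 in 7 of 7 genes, against 41.2% of all tested genes. It was lower by at least 1.5-fold in 5 of 7 genes, against 4.57% of all tested genes, and higher by as much in 0 of 7 genes, against 3.67%. This fold compares 1 library with 2 and has no replicate check.

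**Figure D1:**
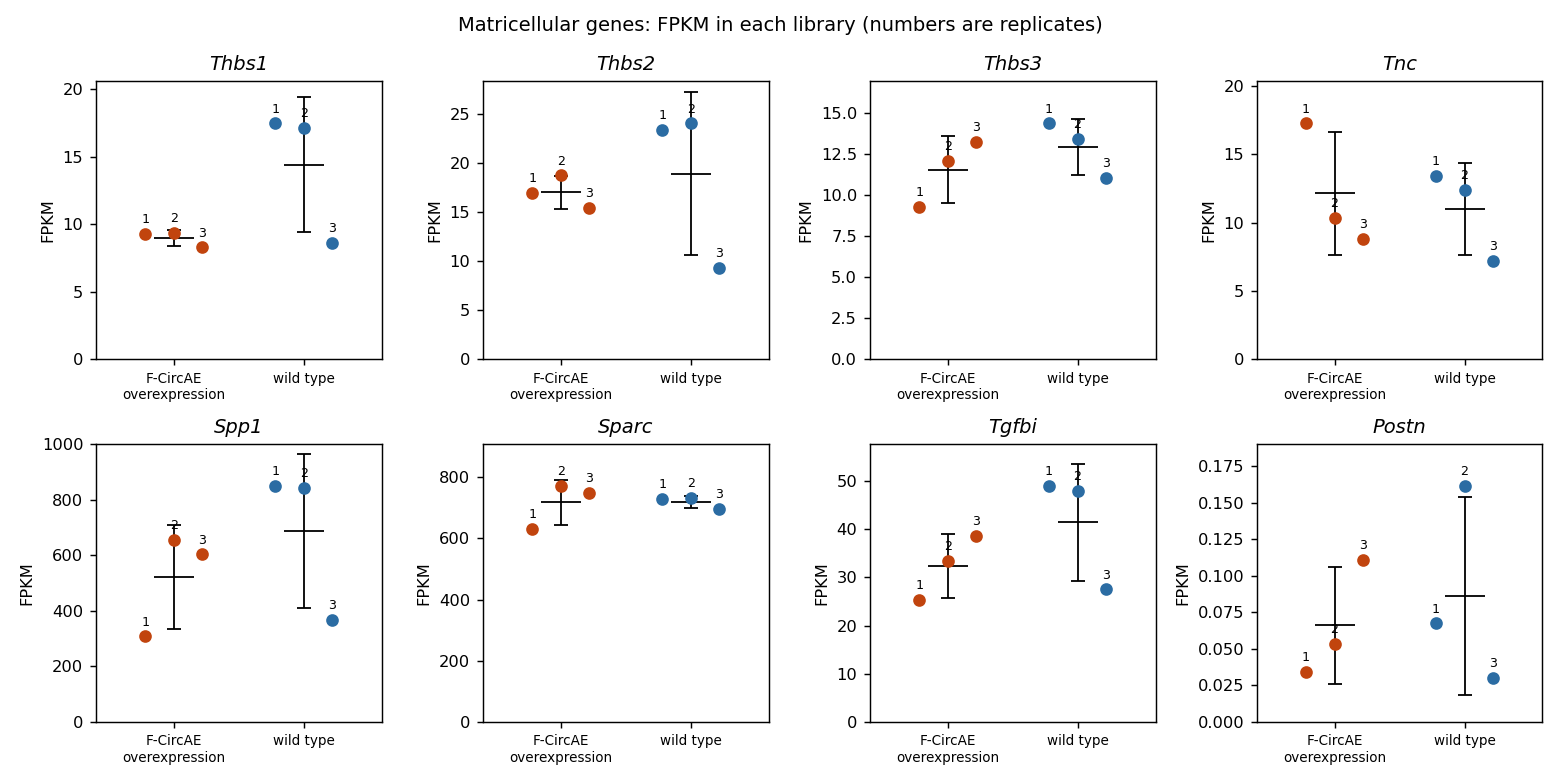
FPKM of each matricellular gene (y axis, linear from 0, scaled per gene) in the 3 F-CircAE overexpression libraries (left) and the 3 wild type libraries (right); numbered points are replicates, and bars are the mean and SD. Thbs1 was at 8.29 to 9.37 FPKM with overexpression, close to wild type replicate 3 at 8.62 FPKM and below wild type replicates 1 and 2.

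The upstream sequences of 4 genes are shown because these, among the tested genes with an entry in the RefSeq table of promoters (7 of the 8 genes matched, Thbs1 did not), differed most within the wild type group. Each window runs 5′ to 3′ on the gene's strand and ends at the base before the RefSeq start of the gene (build GRCm38.p6), except that of Tgfbi, which is cut at 187 bases where annotated exons begin. Capitals mark matches, on either strand, to TATAAA (the TATA box), TGTGGT (the core bound by RUNX factors), TGANTCA (AP-1), GGAATG (TEAD) or GGGCGG (the GC box). The windows are chr5:104434861-104435110 on the plus strand for Spp1, chr17:14694263-14694512 on the minus strand for Thbs2, chr4:64047016-64047265 on the minus strand for Tnc and chr13:56609336-56609522 on the plus strand for Tgfbi.
Spp1: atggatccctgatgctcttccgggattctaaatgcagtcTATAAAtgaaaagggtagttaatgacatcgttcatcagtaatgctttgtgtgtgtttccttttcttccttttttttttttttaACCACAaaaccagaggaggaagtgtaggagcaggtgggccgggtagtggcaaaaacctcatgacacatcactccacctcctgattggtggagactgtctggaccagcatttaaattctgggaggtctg
Thbs2: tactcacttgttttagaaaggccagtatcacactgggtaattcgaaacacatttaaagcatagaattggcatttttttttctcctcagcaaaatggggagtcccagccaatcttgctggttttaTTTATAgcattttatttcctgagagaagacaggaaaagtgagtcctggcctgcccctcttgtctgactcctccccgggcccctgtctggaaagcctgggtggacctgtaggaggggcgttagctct
Tnc: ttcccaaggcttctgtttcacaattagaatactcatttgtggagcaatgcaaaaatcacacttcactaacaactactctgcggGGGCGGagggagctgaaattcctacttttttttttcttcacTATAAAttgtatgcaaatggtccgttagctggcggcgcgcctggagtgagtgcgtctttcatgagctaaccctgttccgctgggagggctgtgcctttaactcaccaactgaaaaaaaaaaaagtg
Tgfbi: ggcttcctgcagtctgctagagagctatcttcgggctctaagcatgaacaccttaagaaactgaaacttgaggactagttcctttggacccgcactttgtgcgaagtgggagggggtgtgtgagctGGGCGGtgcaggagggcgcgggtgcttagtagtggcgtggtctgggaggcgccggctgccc

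In the Spp1 window, the TATA box letters stood at bases -211 to -206 from the start, and the RUNX core, read on the opposite strand, at bases -128 to -123. The Thbs2 window held the TATA box letters on the opposite strand at bases -126 to -121. In the Tnc window the GC box stood at bases -167 to -162 and the TATA box letters at bases -126 to -121, and in the Tgfbi window the GC box stood at bases -124 to -119. No printed motifs overlapped. Of 32851 windows of 250 bases before a start in the same table, 12.4% held the TATA box letters, 14.0% the RUNX core, 6.75% the AP-1 motif, 12.6% the TEAD motif and 32.7% the GC box. The AP-1 and TEAD motifs were not among the letters of the 4 printed windows. The matches describe the letters only, and binding was not measured.

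Among the thrombospondins, Thbs1 had the largest difference between the groups. Thrombospondin 1 is a secreted glycoprotein that binds CD47 and CD36, curbs the growth of blood vessels and can activate latent TGF-beta. The gene (ENSMUSG00000040152) lies on chromosome 2 at 118111876 to 118127133, plus strand, in mm10. It had 9.28, 9.37 and 8.29 FPKM in overexpression replicates 1, 2 and 3, against 17.5, 17.2 and 8.62 FPKM in wild type replicates 1, 2 and 3. The overexpression libraries lay close together, and wild type replicate 3 fell among them, so the groups overlapped. Thbs1 averaged 8.98 ± 0.599 FPKM with overexpression and 14.4 ± 5.03 FPKM in wild type (SD, n = 3 each), a ratio of means of 0.622. The log2(FPKM + 1) difference was -0.57 with a standard error of 0.25 and a 95% interval from -1.16 to 0.02 (limma, Benjamini-Hochberg adjusted p = 0.842). These levels rest on 954, 1224 and 940 reads in the overexpression libraries and 2172, 2227 and 1002 reads in the wild type libraries, so counting error was small beside the spread of the wild type libraries. An annotated noncoding gene on the other strand, Gm29233, covers 208 bases of Thbs1 exons.

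Thbs2 was the gene with the widest gap inside the wild type group among the 7 tested genes. Thrombospondin 2 limits the formation of blood vessels and guides collagen fibril assembly, and it binds MMP2, which is then cleared through the receptor LRP1. Thbs2 (ENSMUSG00000023885; chromosome 17 at 14665500 to 14694235, minus strand) had 16.9, 18.7 and 15.4 FPKM with overexpression, against 23.4, 24.1 and 9.29 FPKM in wild type. The overexpression libraries were all between wild type replicate 3, the lowest library, and wild type replicates 1 and 2, the highest. Group means were 17.0 ± 1.68 FPKM with overexpression and 18.9 ± 8.33 FPKM in wild type (SD, n = 3 each). The difference of -0.04 on the log2(FPKM + 1) scale had a standard error of 0.33 and a 95% interval of -0.83 to 0.75 (limma, adjusted p = 0.987). Changes within that interval, in either direction, were thus compatible with these values.

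Thbs3 varied less. Thrombospondin 3 belongs to the other structural subgroup of the family, together with cartilage oligomeric matrix protein, and it is known from skeletal development. Thbs3 (ENSMUSG00000028047; chromosome 3 at 89215180 to 89226837, plus strand) had 9.29, 12.1 and 13.3 FPKM with overexpression, against 14.4, 13.4 and 11.1 FPKM in wild type. Overexpression replicate 1 was the lowest library and wild type replicate 1 the highest, and the other libraries were mixed. The mean was 11.5 ± 2.04 FPKM with overexpression and 13.0 ± 1.70 FPKM in wild type (SD, n = 3 each), and the log2(FPKM + 1) difference was -0.16 with a standard error of 0.14 (95% interval -0.49 to 0.17; limma, adjusted p = 0.850). The difference was -0.02 without overexpression replicate 1, -0.26 without wild type replicate 3 and -0.11 with wild type replicates 1 and 2 averaged. Exons of Mtx1, a mitochondrial import gene on the other strand, cover 318 bases of Thbs3 exons (6.59%). Mtx1 had 7.41, 7.22 and 6.57 FPKM with overexpression, against 6.70, 7.43 and 7.20 FPKM in wild type, and no source used here says whether strand was used in counting, so part of the Thbs3 reads is uncertain.

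The summed level of the 3 thrombospondins was 35.5, 40.2 and 36.9 FPKM in the overexpression libraries, against 55.2, 54.6 and 29.0 FPKM in the wild type libraries. Thbs2 gave the largest share of that sum in 5 of the 6 libraries, with 47.7%, 46.6% and 41.7% in overexpression replicates 1, 2 and 3, against 42.3%, 44.0% and 32.1% in wild type replicates 1, 2 and 3. In wild type replicate 3, Thbs3 took the largest share at 38.2%. The share of Thbs1 was 26.1%, 23.3% and 22.4% with overexpression, against 31.7%, 31.4% and 29.7% in wild type, so that in the share, unlike in the level, wild type replicate 3 lay with the other wild type libraries. That the shares of Thbs1 do not overlap was seen after the values were known and was not tested.

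Tnc was the gene with a fitted difference above 0. Tenascin C is a large glycoprotein of developing and wounded tissue that interferes with the adhesion of cells to fibronectin. Tnc (ENSMUSG00000028364; chromosome 4 at 63959785 to 64047015, minus strand) had 17.3, 10.3 and 8.83 FPKM with overexpression, against 13.5, 12.4 and 7.18 FPKM in wild type. Overexpression replicate 1 was the highest library, while overexpression replicates 2 and 3 lay between wild type replicate 3 and wild type replicates 1 and 2. Tnc averaged 12.1 ± 4.50 FPKM with overexpression and 11.0 ± 3.36 FPKM in wild type (SD, n = 3 each). The log2(FPKM + 1) difference was 0.12 with a standard error of 0.29 (95% interval -0.57 to 0.82, limma adjusted p = 0.943). It was -0.14 without overexpression replicate 1 and 0.25 with wild type replicates 1 and 2 averaged. An annotated transcript on the other strand, 8030451A03Rik, covers 176 bases of Tnc exons and did not exceed 0.718 FPKM in any library.

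Spp1 and Sparc were far above the other matricellular genes and together made up 92.3% to 94.4% of the summed FPKM of the 8 genes in the 6 libraries. By mean FPKM over all libraries Sparc ranked 63 and Spp1 ranked 76 among the 24938 genes. Osteopontin, encoded by Spp1, is an acidic phosphoprotein of bone and of many secreting cells that binds integrins and CD44. Spp1 (ENSMUSG00000029304; chromosome 5 at 104435118 to 104441050, plus strand) had 308, 656 and 603 FPKM with overexpression, against 849.6, 843 and 366 FPKM in wild type. Overexpression replicate 1 and wild type replicate 3 were the low libraries, and wild type replicates 1 and 2 the high ones. The mean was 522 ± 187 FPKM with overexpression and 686 ± 277 FPKM in wild type (SD, n = 3 each), with a log2(FPKM + 1) difference of -0.37, a standard error of 0.41 and a 95% interval of -1.35 to 0.61 (limma, adjusted p = 0.876). This was the largest standard error among the 7 genes, although 8594, 23245 and 18567 reads in the overexpression libraries and 28648, 29684 and 11551 in the wild type libraries fell on the gene. The difference was -0.03 without overexpression replicate 1 and -0.77 without wild type replicate 3. An unconfirmed annotated gene on the same strand, Gm42793, shares 309 bases (18.8%) of Spp1 exons, and it was listed at 2.03, 2.90 and 2.87 FPKM with overexpression and 3.28, 2.77 and 1.38 FPKM in wild type, far below Spp1.

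Sparc was the steadiest of the 7 genes. SPARC, also called osteonectin, binds calcium and collagen and takes part in collagen fibril assembly. Sparc (ENSMUSG00000018593; chromosome 11 at 55394500 to 55423183, minus strand) had 632, 771 and 749.8 FPKM with overexpression, against 729, 732 and 697 FPKM in wild type. Overexpression replicate 1 was the lowest library and the other overexpression libraries were the highest, so the wild type libraries all lay inside the overexpression range. Sparc averaged 718 ± 74.9 FPKM with overexpression and 719 ± 19.1 FPKM in wild type (SD, n = 3 each). The log2(FPKM + 1) difference was -0.01 with a standard error of 0.09 and a 95% interval of -0.22 to 0.20 (limma, adjusted p = 0.991). That interval was the narrowest of the 7, and a doubling or halving of Sparc lay outside it.

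Because Sparc was steady and Spp1 was not, the order of the leading pair changed between libraries. The ratio of Spp1 to Sparc in FPKM was 0.487, 0.850 and 0.804 in the overexpression libraries, against 1.17, 1.15 and 0.525 in the wild type libraries. Spp1 was thus above Sparc in wild type replicates 1 and 2, and Sparc above Spp1 in the 3 overexpression libraries and in wild type replicate 3. Tgfbi came next in every library. Below it, Thbs2, Thbs1, Thbs3 and Tnc exchanged places, with levels of 7.18 to 24.1 FPKM over the 6 libraries, and Postn was last in every library. In each group the ranges of Thbs1, Thbs3 and Tnc overlapped one another.

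The genes of the fasciclin proteins, Tgfbi and Postn, lay far apart in level, with Tgfbi next after Spp1 and Sparc and Postn last in every library. TGFBI is a secreted protein first known as a transcript induced by TGF-beta, and it binds collagens and integrins. Tgfbi (ENSMUSG00000035493; chromosome 13 at 56609523 to 56639562, plus strand) had 25.4, 33.4 and 38.6 FPKM with overexpression, against 49.0, 47.9 and 27.5 FPKM in wild type. The 3 overexpression libraries were below wild type replicates 1 and 2, and wild type replicate 3 lay among them. It averaged 32.5 ± 6.67 FPKM with overexpression and 41.5 ± 12.1 FPKM in wild type (SD, n = 3 each), with a log2(FPKM + 1) difference of -0.32 and a standard error of 0.25 (95% interval -0.91 to 0.27; limma, adjusted p = 0.849).

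Periostin, a fasciclin protein of periosteum, heart valves and wound fibroblasts, was close to undetected. Postn (ENSMUSG00000027750; chromosome 3 at 54361109 to 54391037, plus strand) had 5, 10 and 18 reads in overexpression replicates 1, 2 and 3, against 12, 30 and 5 reads in wild type replicates 1, 2 and 3. In FPKM these were 0.0339, 0.0534 and 0.111 with overexpression and 0.0674, 0.161 and 0.0300 in wild type. Exact Poisson 95% intervals, which cover counting error only, ran from 1.62 to 11.7 reads for the libraries with 5 reads and from 20.2 to 42.8 reads for wild type replicate 2. Wild type replicate 2 thus lay above the libraries with 5 reads beyond counting error, while the groups overlapped, and the gene was below the level needed for the test. An exact two-sided permutation test of group means over the 6 libraries, which with 3 against 3 cannot go below 0.1, gave p = 0.7 for Postn. For the 7 other genes the same exact test gave values from 0.3 (Thbs1 and Tgfbi) to 1.

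**Figure D2:**
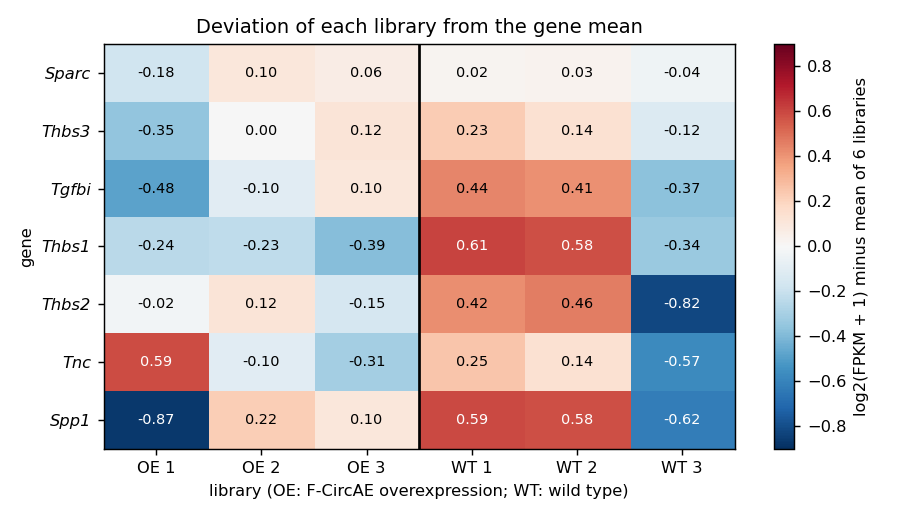
Deviation of each library (columns, F-CircAE overexpression left and wild type right) from the mean of the 6 libraries on the log2(FPKM + 1) scale for the 7 tested genes (rows), red above and blue below the mean. Overexpression replicate 1 runs from -0.87 for Spp1 to 0.59 for Tnc, while wild type replicates 1 and 2 are above the mean in every row and wild type replicate 3 is below it in every row.

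The libraries that stood apart differed from gene to gene. The mean of wild type replicates 1 and 2 was 2.55 times wild type replicate 3 for Thbs2, 2.31 times for Spp1, 2.01 times for Thbs1, 1.80 times for Tnc and 1.76 times for Tgfbi, but 1.26 times for Thbs3 and 1.05 times for Sparc. Overexpression replicate 1 was the lowest of all 6 libraries in 4 of the 7, Thbs3, Sparc, Spp1 and Tgfbi, against 25% of all tested genes, and it was the highest in Tnc. Wild type replicate 3 was the lowest of all 6 libraries in 2 of the 7 genes, Thbs2 and Tnc, against 19.2% of all tested genes. In 5 of the 7 genes, Thbs1, Thbs2, Thbs3, Spp1 and Tgfbi, all 3 overexpression libraries were below both wild type replicates 1 and 2, against 17.9% of all tested genes. The standard error exceeded the median of all tested genes, 0.09, in 6 of the 7 genes. The fewest reads behind a value of a tested gene were 759, for Thbs3 in overexpression replicate 1, a counting error of 3.63%. That is smaller than the gap between wild type replicate 3 and wild type replicates 1 and 2 in each of the 7 genes. The gap was narrowest in Sparc, which had 44951 reads in wild type replicate 3. The part that the near identity of wild type replicates 1 and 2 had in these differences was not tested.

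Without wild type replicate 3, the fitted differences of all 7 genes were below 0 and their median was -0.46 on the log2(FPKM + 1) scale, against 47.6% of all tested genes below 0. Thbs1 was then at -0.88 (unadjusted p = 1.49e-05, adjusted p = 0.0605 by limma), Spp1 at -0.77 (adjusted p = 0.337), Tgfbi at -0.58 (adjusted p = 0.260) and Thbs2 at -0.46 (adjusted p = 0.192). None of the 7 was called, beside 0.0164% of all tested genes. An unadjusted p below 0.05 was reached by 3 of the 7 genes, Thbs1, Thbs2 and Tgfbi, all lower with overexpression, against 6.59% of all tested genes that were lower at this level in that fit and 15.3% in either direction. These values rest on wild type replicates 1 and 2, which were nearly alike, as the whole reference. With these libraries averaged into 1 and wild type replicate 3 kept, the differences were -0.41 for Thbs1, -0.19 for Tgfbi, -0.17 for Spp1 and 0.17 for Thbs2, with 4 of 7 genes below 0, against 46.2% of all tested genes. Weighting libraries by their quality (array weights in limma, chosen after seeing the data) called 18.3% of all tested genes, 7.28% as lower, and 2 of the 7 as lower, Thbs1 at -0.79 (adjusted p = 0.0212) and Tgfbi at -0.48 (adjusted p = 0.0380). With the same weights and the nearly alike libraries averaged, no gene was called. The estimates of Thbs1 and Tgfbi were below 0 in all 17 alternatives, and both genes passed the adjusted threshold in 1 of them, the fit with array weights, which reweights all 6 libraries. Alternatives that changed only the filter, the moderation or a block for replicate number could not move an estimate.

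**Figure D3:**
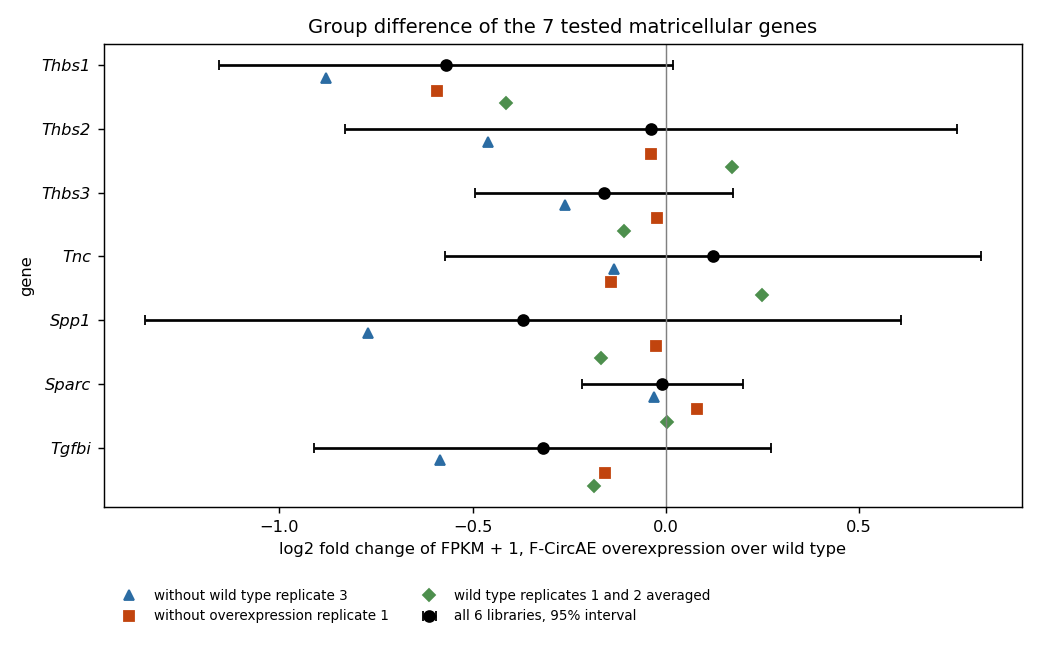
Difference between F-CircAE overexpression and wild type (x axis, log2 fold change of FPKM + 1) for the 7 tested genes (rows): black points with 95% intervals use all 6 libraries, and coloured points leave out a library or average wild type replicates 1 and 2. Every interval spans 0, and for Spp1 the value runs from -0.77 without wild type replicate 3 to -0.03 without overexpression replicate 1.

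Patterns across the 6 libraries were compared by the root mean square difference between genes in log2(FPKM + 1), each gene taken relative to its own mean. This is a description over 6 libraries with no test, and the genes share their libraries and scaling. The deviations were not scaled to each gene's spread, so genes that vary little lie close together whatever their pattern. Within the set, Thbs3 and Sparc were closest at 0.13, and Tnc and Spp1 were farthest apart at 0.67. Over all tested genes, Ccl9, a chemokine gene, lay nearest to Thbs1 at 0.084, with 32.9, 33.8 and 34.1 FPKM with overexpression and 67.9, 68.3 and 34.7 FPKM in wild type. It was followed by Gm21680 at 0.10. As for Thbs1, the overexpression libraries and wild type replicate 3 of Ccl9 were alike and wild type replicates 1 and 2 about as far above them.

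Pdgfrb, a growth factor receptor of mesenchymal cells, was nearest to Spp1 at 0.12, with 6.91, 11.9 and 11.5 FPKM with overexpression and 17.8, 17.1 and 7.60 FPKM in wild type. Slco2b1, a transporter gene, was next at 0.12. Ltbp4, a gene for a binding protein of latent TGF-beta, was nearest to Thbs3 at 0.011, with 1.96, 2.75 and 3.18 FPKM with overexpression and 3.47, 3.14 and 2.48 FPKM in wild type, and Tex26 was next. Closest to Tgfbi were Cyp2d22 at 0.036 and Ccl7, a chemokine gene, at 0.038. Ccl7 had 117, 155 and 166 FPKM with overexpression and 216, 209.6 and 128 FPKM in wild type, with wild type replicates 1 and 2 again the highest. Thbs2 was nearest to Gm7967 at 0.087 and to Rgs16, a regulator of G protein signalling, at 0.13. Tnc was nearest to 5930409G06Rik and Il1rl1, a cytokine receptor gene, each at 0.12, and Sparc to Ubxn6 at 0.018 and Sptbn1 at 0.019.

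Genes that work with the matricellular proteins were read from lists of relatives, receptors, TGF-beta genes, proteases and matrix partners. No gene of the 5 lists passed the adjusted threshold in limma with all 6 libraries weighted equally. With array weights, which called 18.3% of all tested genes, 3 of 9 tested relatives, 2 of 16 receptors, 3 of 14 TGF-beta genes, 4 of 8 proteases and 7 of 12 matrix partners passed it, and with wild type replicates 1 and 2 averaged as well, none did. Of 19 relatives, which are other thrombospondins, SPARC-like genes, tenascins, the CCN family and fibulin 5, 9 were tested. Of the 9, 6 were below 0, against 46.8% of all tested genes. Their median difference was -0.03 on the log2(FPKM + 1) scale. With wild type replicates 1 and 2 averaged, 7 of the 9 were below 0, against 46.2% of all tested genes, and the median was -0.04. Cyr61, an integrin ligand of the CCN family, had 255, 231 and 152 FPKM with overexpression and 332, 334 and 175 FPKM in wild type, with wild type replicate 3 below the other wild type libraries as in Thbs1 (difference -0.37, limma adjusted p = 0.850). Fstl1, a SPARC-related gene, had 69.0, 77.5 and 76.0 FPKM with overexpression and 77.3, 76.6 and 66.0 FPKM in wild type (difference 0.02). Groups did not overlap in 2 of the 9 tested relatives, against 11.5% of all tested genes. These were Ctgf, a CCN gene with 38.8, 39.8 and 40.0 FPKM with overexpression and 44.4, 44.8 and 45.9 FPKM in wild type, and Wisp1, with 13.8 to 14.0 FPKM with overexpression and 14.2 FPKM in each wild type library; they were named after their values were seen. Wisp3, which was too low to be tested, had 0.250, 0.361 and 0.227 FPKM with overexpression and 0.862, 0.462 and 0.589 FPKM in wild type, also without overlap. For Ctgf the difference was -0.18 (unadjusted p = 0.00969, adjusted p = 0.842 by limma), and there wild type replicate 3 was not the low library. Tnr, a tenascin gene, was the other relative with an unadjusted p below 0.05, at -0.61 (adjusted p = 0.842 by limma). That made 2 of the 9 tested relatives, against 5.17% of all tested genes.

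Receptors showed smaller steps. Of 22 receptor genes 16 were tested and 11 were below 0, against 46.8% of all tested genes. Their median difference was -0.03 on the log2(FPKM + 1) scale. An unadjusted p below 0.05 was reached by 0 of the 16, against 5.17% of all tested genes. With wild type replicates 1 and 2 averaged, 6 of the 16 were below 0, against 46.2% of all tested genes, and the median was 0.02. Itgb1, the integrin subunit shared by many matrix receptors, had 187, 187 and 174 FPKM with overexpression and 178, 173 and 173 FPKM in wild type. Calr, which helps thrombospondin signal at the cell surface and otherwise folds proteins in the endoplasmic reticulum, had 445, 286 and 268 FPKM with overexpression and 246, 252 and 312 FPKM in wild type. For Calr overexpression replicate 1 and wild type replicate 3 were the high libraries, the same that were low for Spp1.

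Of 16 TGF-beta genes 14 were tested and 12 were below 0, against 46.8% of all tested genes. Their median was -0.05 on the log2(FPKM + 1) scale. With wild type replicates 1 and 2 averaged, 9 of the 14 were below 0, against 46.2% of all tested genes. With all 6 libraries, an unadjusted p below 0.05 in limma was reached by 1 of the 14, against 5.17% of all tested genes. The groups did not overlap in 1 of the 14, against 11.5% of all tested genes. This was Ltbp3, which binds latent TGF-beta, with 31.4, 35.1 and 36.3 FPKM with overexpression and 43.2, 43.8 and 37.6 FPKM in wild type. Its difference was -0.27 (limma unadjusted p = 0.0168, adjusted p = 0.842). Its relative Ltbp2 had 23.8, 33.2 and 34.4 FPKM with overexpression and 37.7, 39.8 and 33.2 FPKM in wild type. All 8 tested of 11 protease genes were below 0, against 46.8% of all tested genes, with a median of -0.13. An unadjusted p below 0.05 was reached by 0 of the 8, against 5.17% of all tested genes. With wild type replicates 1 and 2 averaged, 6 of the 8 were below 0, against 46.2% of all tested genes. Mmp2, the gelatinase that thrombospondin 2 binds, had 138, 173 and 159.5 FPKM with overexpression and 214, 213 and 135 FPKM in wild type, once more with wild type replicates 1 and 2 apart from wild type replicate 3. Ctsb, a lysosomal protease gene, had 69.2, 72.4 and 72.9 FPKM with overexpression and 76.1, 75.7 and 69.5 FPKM in wild type.

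All 12 matrix partners were tested and 11 were below 0, against 46.8% of all tested genes. Their median was -0.15 on the log2(FPKM + 1) scale, close to that of the 7 matricellular genes. With wild type replicates 1 and 2 averaged, 11 were also below 0, against 46.2% of all tested genes, with a median of -0.09. An unadjusted p below 0.05 was found for 2 of the 12, against 5.17% of all tested genes. These were Col5a1 at -0.18 and Dcn, a collagen-binding proteoglycan gene, at -0.93, both with an adjusted p of 0.842 in limma. Col5a1 had 71.6, 71.0 and 72.8 FPKM with overexpression and 85.6, 85.2 and 74.6 FPKM in wild type, without overlap of the groups. It was the only 1 of the 12 matrix partners without overlap, against 11.5% of all tested genes. The groups overlapped in all 16 tested receptors and all 8 tested proteases. Col1a1, the main collagen chain, had 444, 575 and 525 FPKM with overexpression and 607, 602 and 492 FPKM in wild type (difference -0.14, limma adjusted p = 0.850). Col1a2 had 409, 489 and 444 FPKM with overexpression and 548, 553 and 405 FPKM in wild type. In both collagens wild type replicates 1 and 2 were the highest libraries. Without wild type replicate 3, an unadjusted p below 0.05 was reached by 9 of the 12 matrix partners, 5 of the 8 proteases, 4 of the 14 TGF-beta genes, 4 of the 9 relatives and 2 of the 16 receptors, against 15.3% of all tested genes. With wild type replicates 1 and 2 averaged, 241 of all 12222 tested genes reached it. On the lists it was then reached by 1 of the 9 relatives, Ctgf. Of the 12 matrix partners, 8 proteases, 14 TGF-beta genes and 16 receptors, 0 reached it. No list gene passed the adjusted threshold in either of these fits.

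**Figure D4:**
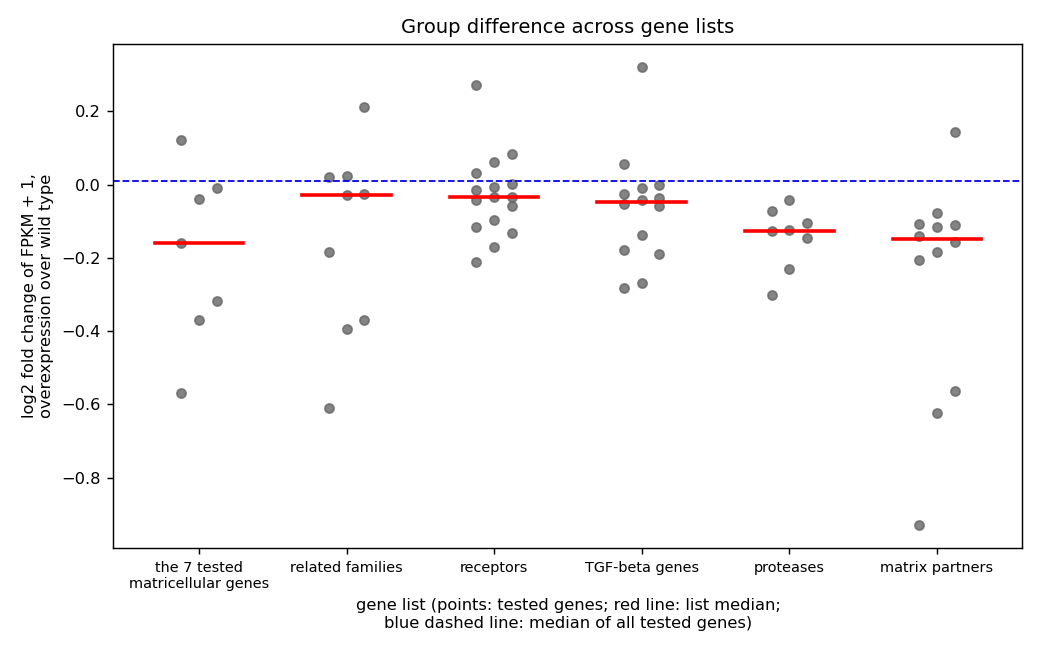
Difference between F-CircAE overexpression and wild type (y axis, log2 fold change of FPKM + 1) for each tested gene of the 7 matricellular genes and the 5 lists (x axis), with red lines at list medians and a dashed line at the median of all tested genes. The medians lie between -0.16 for the matricellular genes and -0.03 for relatives and receptors, and no point passed the adjusted threshold in this fit.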

How the data were processed

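RNA was treated with DNase I and made into libraries with an NEBNext Ultra kit, then read as 125 or 150 bp pairs on an Illumina HiSeq, per the labels' protocols. Each of the 6 deposited files holds FPKM values per Ensembl gene, per the file headers. The build was mm10, per the submitters' processing notes. The aligner, counting program, strand setting and annotation version are not stated in the sources used here. Groups came from the labelled genotype. Symbols and coordinates came from GENCODE mouse release 21 (24816 of 24938 IDs had a symbol).

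The FPKM values of a gene step by the worth of 1 read, and from these steps reads could be recovered within 0.01 reads for 79.5% of genes with the annotated exon length, and with a searched length for 5098 more. These reads serve for depth, library pairs and an alternative; intervals from them cover counting error only.

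The test was limma (version 3.58.1, R version 4.3.3) on log2(FPKM + 1), using a mean-variance trend, robust moderation and a group term. It covered the 12222 genes whose FPKM exceeded 1 in 3 libraries or more and left 12716 untested; Benjamini-Hochberg adjustment ran over all tested genes at 0.05. The added 1 makes changes of low genes look smaller. Exact two-sided permutation tests compared group means. The 8 genes, the lists and the alternatives were chosen with earlier results of these data known. Besides the 8 genes, the text names the 2 tested genes of highest level in each list and the 2 genes nearest to each tested gene in pattern; other names were chosen after seeing values. Alternatives changed the pseudocount, filter, scaling, moderation, libraries and unit tested. Windows before RefSeq starts (GRCm38.p6) were searched for 5 motifs on both strands.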

Additional observations from a re-analysis of the deposited data

How the results depend on the processing

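Over 17 alternatives, of which 2 were chosen after seeing the data, the 7 tested genes gave 119 values: 102 kept their direction and their side of the adjusted threshold of 0.05 in limma, 15 changed sign and 2 passed the threshold. Fits that changed only the filter, the moderation or the replicate block leave each estimate as in the main fit. Their values are among the 102, and their sign was fixed in advance. With Benjamini-Hochberg adjustment, no gene was called with all 6 libraries (632 at an unadjusted p below 0.05) or by limma-voom on recovered reads (755). The count ran from 0 to 2 when a library was left out, was 1 without trend and robust moderation, 2241 with array weights, and 0 in the other fits. Rescaling to equal FPKM sums gave 103 higher and 643 lower genes at an unadjusted p below 0.05, in place of 350 higher and 282 lower, and gave a median difference of -0.05 over all tested genes in place of 0.01. Array weights called Thbs1 (-0.79) and Tgfbi (-0.48). Thbs2 ran from -0.46 to 0.18 with a library left out, and was 0.17 with wild type replicates 1 and 2 averaged and 0.27 with array weights as well. Sparc ran from -0.063 to 0.080 with a library left out, and was 0.0027 averaged, 0.062 with array weights and 0.090 with both. Tnc ran from -0.14 to 0.31 with a library left out and was -0.24 with array weights. Spp1 was 0.16 with array weights and averaging. The cause of these changes was not tested. Thbs1, Thbs3 and Tgfbi stayed below 0 in all 17 alternatives, which include the fits whose sign was fixed in advance.

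The replicate numbers do not pair the libraries: deviations of same-numbered libraries correlated at -0.10 to 0.083, and 0 of 3 overexpression libraries were closest to their own number. With the replicate number as a block, 0 genes were called (444 at an unadjusted p below 0.05), and Thbs1 had an adjusted p of 0.921 in limma. The unadjusted p of Thbs1 in limma was 0.0212 with the block and 0.0470 after rescaling to equal FPKM sums, beside 0.0557 in the main fit. Postn, at 5 to 30 reads a library, was too low in FPKM to be tested.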

Other observations

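The genes next to the matricellular genes on the chromosome were read in the same libraries, as values with no test. Pkd2, 18400 bases from Spp1 and a gene for a ciliary cation channel, had 19.7, 23.6 and 25.1 FPKM with overexpression and 27.9, 27.3 and 24.4 FPKM in wild type, so wild type replicate 3 was close to wild type replicates 1 and 2 there while Spp1 differed 2.31-fold between them. On the other side of Spp1, Mepe, a bone matrix gene, did not exceed 0.0351 FPKM with overexpression and was at 0 in all 3 wild type libraries. Smad5, a BMP signal transducer gene 63448 bases from Tgfbi, had 13.4, 16.3 and 14.7 FPKM with overexpression and 18.6, 18.0 and 13.7 FPKM in wild type, which is the same order of wild type libraries as Tgfbi with a smaller step. Atox1, a copper chaperone gene 23458 bases from Sparc, had 259, 237 and 214 FPKM with overexpression and 223, 234 and 203 FPKM in wild type, with overlapping groups. The annotated neighbours of Thbs1 and Thbs2 that were listed, Rasgrp1, Fsip1, Smoc2 and Wdr27, were all below 0.1 FPKM in every library.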
